A study of Mus musculus with 8 samples.

Results

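Aminoacyl-tRNA synthetases, the enzymes that charge each tRNA with its amino acid, were examined in mouse fetal liver cells with a stem cell surface profile. The members were taken by name, as the 20 cytosolic and 17 mitochondrial synthetase genes that have a row in the authors' comparison, 37 genes of the 14033 in it. The rule names 40 genes and uses no measured value; Gars2, Kars2 and Qars2 have no row. Cytosolic synthetases had slightly higher mean levels in GFP+ than in Tomato+ cells on the deposited scale, with none past the authors' test. Among mitochondrial synthetases 1 passed, Lars2, the leucyl-tRNA synthetase, which was 3.24-fold higher in GFP+. Part of its transcript is shared with other genes, so its level is uncertain. The directions of the smaller differences depend in part on the scaling.

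The cells came from embryos at E14.5 of crosses between Flt3-Cre and mTmG mice, and the labels give this cross for both groups, with no genotype for single embryos. A cell with the mTmG reporter is red with Tomato at first, and once Cre has recombined the reporter, the cell and its descendants make GFP instead. Kit+ Sca1+ CD150+ cells without lineage markers were sorted into a GFP+ fraction, which has a history of Flt3-Cre activity (4 libraries), and a Tomato+ fraction, in which the reporter had not recombined (4 libraries). GFP records past recombination and not present Flt3 expression, and the labels do not say whether libraries came from separate embryos, litters or pools. The deposited table holds the authors' mean normalized count of each fraction, with the p-value of their comparison before and after adjustment, and nothing per library. The depth of each library is therefore unknown, and no SD, n or range over libraries can stand beside a mean. If the libraries are not separate embryos or pools, the spread behind the authors' p-values may be technical. All 12 listed markers of blood stem and progenitor cells had a row. Of these, 2 passed as higher in GFP+ (Flt3 and Cd34) and 5 as lower, Slamf1 among them, against 4.86% and 2.64% of all rows. Among the genes of the sort, Kit averaged 4087 normalized counts in GFP+ cells and 4950 in Tomato+ cells, Ly6a (Sca1) 59.5 in GFP+ cells and 70.1 in Tomato+ cells, and Slamf1 (CD150) 27.9 in GFP+ cells and 119 in Tomato+ cells (all from the authors' deposited table).

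In the cytosol, each synthetase recognises its amino acid and the matching tRNAs, joins them at the cost of ATP and feeds the ribosome. Mitochondria translate the few proteins of their own genome with separate enzymes, which are encoded in the nucleus and imported. Lysine and glycine are exceptions, since Kars and Gars each supply both compartments, and mitochondrial glutaminyl-tRNA is made indirectly by an amidotransferase. Several cytosolic synthetases sit together in a multi-synthetase complex, held by scaffold proteins. When uncharged tRNA accumulates, the kinase Gcn2 (Eif2ak4) phosphorylates eIF2, and the transcription factor Atf4 then raises genes of amino acid supply, cytosolic synthetases among them.

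Of the 37 members, 27 had a promoter in the RefSeq table of build GRCm38.p6, which gives 250 bases before and 50 after each gene's start. Both strands were searched for 5 motifs, namely TGATGNAA (a core bound by Atf4 with C/EBP partners), CACGTG (the E-box, bound by Myc and relatives), CCGGAAG (the Ets core), the Nrf1 site and GGGCGG (the GC box of Sp1). The letters of the Atf4 core stood in 5 of 13 cytosolic promoters, those of Aars, Gars, Iars, Tars and Yars, and in 0 of 14 mitochondrial promoters, against 4.51% of all 27025 genes in the table. The matches are descriptions of letters in these windows, not of binding. The shares of all genes are not matched to the members for expression or base composition. The promoters of Aars, Iars and Yars are shown as holders of the Atf4 core, that of Kars as the cytosolic gene with the largest log2 value and that of Lars2 as the member past the test, each 5′ to 3′ with matches to any of the 5 motifs in capitals.
Aars (chr8:111033592-111033891, plus strand, GRCm38.p6): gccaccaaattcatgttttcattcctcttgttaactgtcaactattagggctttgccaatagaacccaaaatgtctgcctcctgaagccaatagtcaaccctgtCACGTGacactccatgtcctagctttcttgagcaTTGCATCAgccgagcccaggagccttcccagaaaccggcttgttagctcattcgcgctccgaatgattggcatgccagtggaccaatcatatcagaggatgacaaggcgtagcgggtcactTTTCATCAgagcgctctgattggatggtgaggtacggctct
Iars (chr13:49681880-49682179, plus strand, GRCm38.p6): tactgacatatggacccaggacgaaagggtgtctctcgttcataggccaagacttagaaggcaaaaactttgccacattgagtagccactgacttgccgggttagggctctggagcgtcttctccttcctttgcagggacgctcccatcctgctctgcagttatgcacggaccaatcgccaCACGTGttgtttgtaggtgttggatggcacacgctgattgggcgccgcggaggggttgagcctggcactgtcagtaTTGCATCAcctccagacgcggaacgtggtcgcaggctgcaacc
Yars (chr4:129189653-129189952, plus strand, GRCm38.p6): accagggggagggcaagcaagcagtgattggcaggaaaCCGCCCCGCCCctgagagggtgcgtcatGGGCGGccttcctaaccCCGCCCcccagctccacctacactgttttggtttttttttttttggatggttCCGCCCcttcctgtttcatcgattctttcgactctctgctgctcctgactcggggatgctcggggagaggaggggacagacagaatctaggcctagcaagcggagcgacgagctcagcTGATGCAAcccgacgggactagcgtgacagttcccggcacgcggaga
Kars (chr8:112011305-112011604, minus strand, GRCm38.p6): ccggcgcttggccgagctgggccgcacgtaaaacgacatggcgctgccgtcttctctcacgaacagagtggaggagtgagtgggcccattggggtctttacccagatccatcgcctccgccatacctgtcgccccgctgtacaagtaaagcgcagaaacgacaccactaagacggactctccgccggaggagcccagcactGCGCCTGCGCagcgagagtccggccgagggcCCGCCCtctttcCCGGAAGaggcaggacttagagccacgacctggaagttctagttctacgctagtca
Lars2 (chr9:123366677-123366976, plus strand, GRCm38.p6): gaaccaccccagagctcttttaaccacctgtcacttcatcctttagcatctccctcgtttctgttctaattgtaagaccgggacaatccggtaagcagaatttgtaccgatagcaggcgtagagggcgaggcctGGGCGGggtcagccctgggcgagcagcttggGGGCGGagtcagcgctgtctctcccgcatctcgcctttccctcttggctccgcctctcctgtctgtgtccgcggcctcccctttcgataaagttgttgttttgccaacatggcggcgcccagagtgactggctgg
In Aars the cores stand as TTGCATCA at position -112 and as TTTCATCA at position 10, counted from the start with no position 0, and both are the core read on the other strand. Iars has TTGCATCA at position 8 and Yars has TGATGCAA at position 4. In the promoters that are not shown, the core begins at -30 in Gars and at -15 in Tars. The E-box stood in 4 cytosolic promoters (Aars, Iars, Tars and Farsb) and 1 mitochondrial promoter (Ears2), against 8.09% of all genes. The Ets core stood in 5 of 13 cytosolic and 4 of 14 mitochondrial promoters, against 9.93% of all genes, and the Nrf1 site in 3 and 2, against 5.19%. GC boxes stood in 8 and 11 of them, against 38.2%, and in Yars a pair of GC boxes overlaps by a single base. Kars holds an Ets core, an Nrf1 site and a GC box, and the window of Lars2 holds GC boxes alone among these motifs.

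In the authors' deposited table, 0 of 20 cytosolic members and 1 of 17 mitochondrial members had an adjusted p under 0.05, against 7.49% of all 14268 rows (4.86% higher and 2.64% lower in GFP+). DESeq is the one test tool that the submitters' processing notes name. By the unadjusted p, 2 cytosolic members (Kars and Aars) and 1 mitochondrial member (Lars2) were under 0.05, against 16.2% of all rows. Among rows in the same range of overall mean, the share past the threshold was 7.05% for the cytosolic and 7.04% for the mitochondrial range. The members' count was thus not above the background, and for all of them but Lars2 the table gives a level and a direction, not a change past the test.

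**Figure D1:**
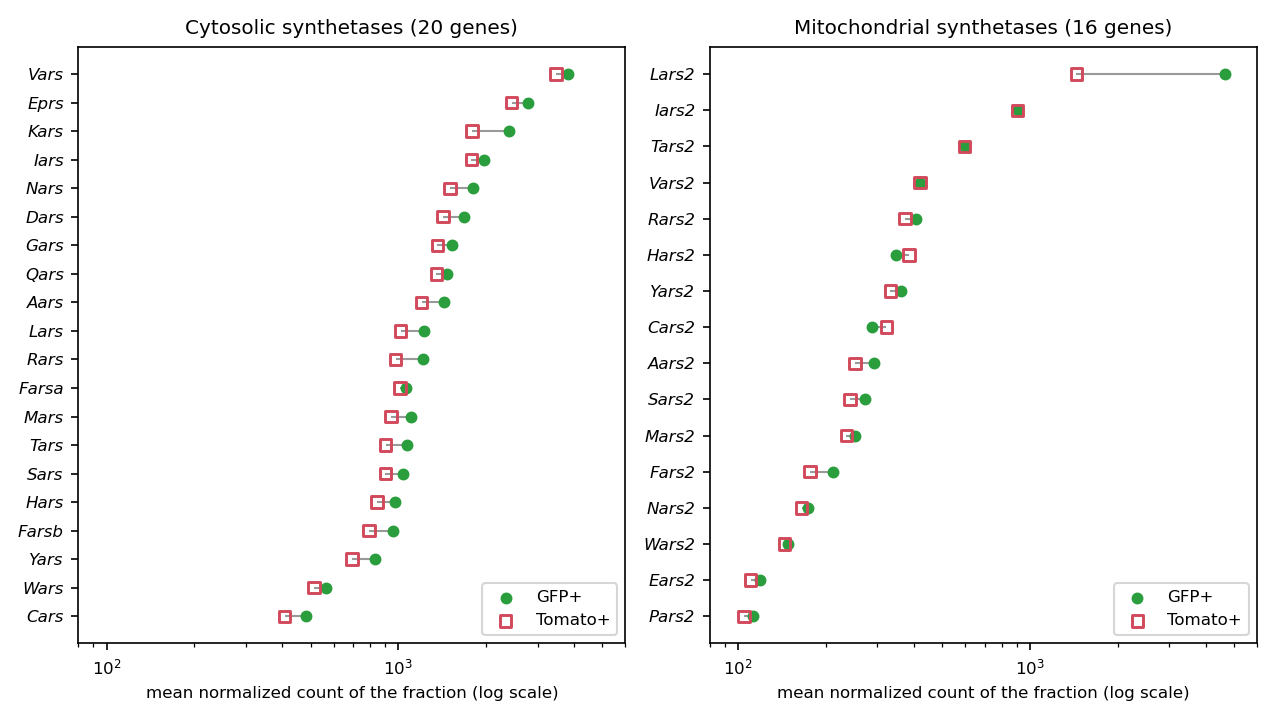
Mean normalized count per fraction (log axis) of the 20 cytosolic (left) and 16 of the mitochondrial (right) synthetase genes in GFP+ (filled circles) and Tomato+ cells (open squares), ordered by overall mean. GFP+ lies to the right of Tomato+ for all 20 cytosolic genes, and the widest gap is that of Lars2, at 4679 in GFP+ cells and 1442 in Tomato+ cells.

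All 20 cytosolic members had a higher mean in GFP+ than in Tomato+ cells. Their log2 values (GFP+ mean over Tomato+ mean) ran from 0.071 to 0.42 with a median of 0.23, against 0.0095 over all rows, of which 51.2% were above 0. Among the 4070 rows within the same range of overall mean, the median was 0.076 and 64.9% of rows were above 0, so that a lean towards GFP+ is common at these levels. The group means of all rows sum to a larger total in GFP+ than in Tomato+, by 0.16 on the log2 scale. With both fractions scaled to equal totals, 15 of the 20 cytosolic members stayed above 0 and the median was 0.074, against -0.080 for rows of the same range, of which 34.2% were above 0 (30.9% of all rows). Iars, Qars, Vars, Wars and Farsa were then below 0, so the direction of these genes depends on the scaling. As summed levels, the 20 genes held 0.371% of the GFP+ total and 0.356% of the Tomato+ total.

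Kars, the lysyl-tRNA synthetase of both compartments, had the largest cytosolic log2 value. Its mean was 2389 normalized counts in GFP+ cells and 1790 in Tomato+ cells by the authors' deposited table, 1.33-fold higher in the GFP+ fraction (log2 0.42, adjusted p = 0.127). It was the cytosolic member with the smallest p and still missed the threshold. Rars, which charges tRNA with arginine, averaged 1215 in GFP+ cells and 979 in Tomato+ cells by the authors' deposited table (log2 0.31, adjusted p = 0.517). Farsb, the beta subunit of phenylalanyl-tRNA synthetase, averaged 959 in GFP+ cells and 792 in Tomato+ cells (log2 0.28, adjusted p = 0.390, the authors' deposited table). At the low end, Farsa, the alpha subunit of the same enzyme, averaged 1064 in GFP+ cells and 1013 in Tomato+ cells (log2 0.071, adjusted p = 0.946, the authors' deposited table). Of the subunits of this 1 enzyme, Farsa thus had the lowest cytosolic log2 value and Farsb one below those of Kars and Rars only. This difference of log2 values was not tested.

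Qars, for glutamine, had a log2 of 0.12 with means of 1462 in GFP+ cells and 1348 in Tomato+ cells by the authors' deposited table. Vars, for valine, averaged 3820 in GFP+ cells and 3470 in Tomato+ cells by the authors' deposited table, with a log2 of 0.14. The 13 cytosolic members other than these and Eprs had log2 values of 0.14 to 0.27, with adjusted p from 0.306 for Aars, which charges alanine, to 0.977 for Wars, which charges tryptophan, in the authors' deposited table. Aars averaged 1434 in GFP+ cells and 1200.3 in Tomato+ cells there, and Wars 566 in GFP+ cells and 514 in Tomato+ cells. The synthetases of class I, which share a Rossmann-fold catalytic domain, and those of class II, with an antiparallel beta-sheet fold, had similar medians. The 10 cytosolic class I genes had a median log2 of 0.21 and the 10 of class II 0.24, with 0 past the threshold in each class, against 7.49% of all rows. Eprs, which joins a glutamate enzyme of class I to a proline enzyme of class II, was counted in class I only.

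**Figure D2:**
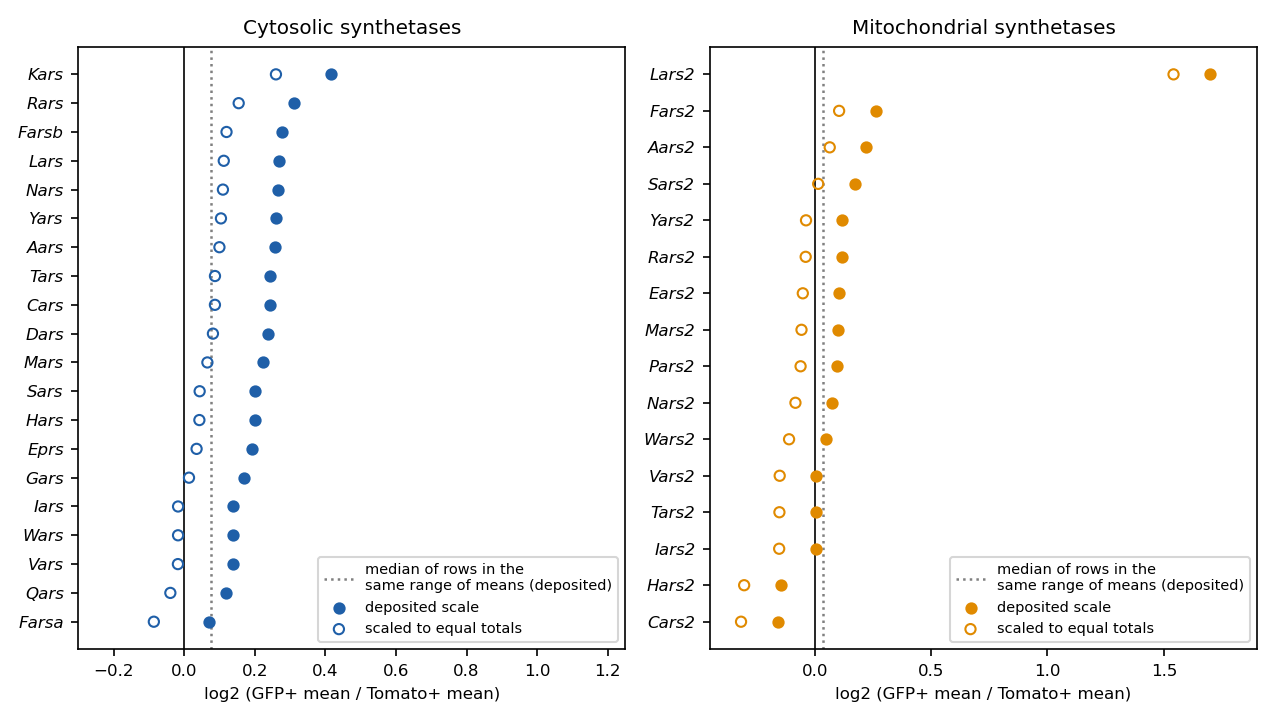
Log2 of the GFP+ mean over the Tomato+ mean for the 20 cytosolic and 16 of the mitochondrial synthetase genes, on the deposited scale (filled) and with both fractions scaled to equal totals (open). The dotted line is the median of all rows in the same range of overall mean, 0.076 for the cytosolic and 0.034 for the mitochondrial genes. Filled points of all 20 cytosolic genes lie above 0, and open points of 15 do.

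The multi-synthetase complex consists of 8 of the cytosolic synthetases and the scaffold proteins Aimp1, Aimp2 and Eef1e1. None of the 11 genes passed the authors' adjusted p of 0.05 and 1 (Kars) had an unadjusted p under 0.05, against 7.49% and 16.2% of all rows. The log2 of all 11 was positive, where 51.2% of all rows were, at a median of 0.22. With equal totals 9 of the 11 were above 0. The scaffold genes had log2 values of 0.19 for Aimp1, 0.22 for Aimp2 and 0.25 for Eef1e1, within the range of the enzymes they hold. Aimp1 and Aimp2 were named after their values were seen, and Eef1e1 had the smallest p of the scaffold genes. In the authors' deposited table Eef1e1 averaged 468 in GFP+ cells and 394 in Tomato+ cells. Eprs, the fused synthetase of glutamate and proline, had 2790 in GFP+ cells and 2442 in Tomato+ cells (log2 0.19, adjusted p = 0.736, the authors' deposited table).

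By median, mitochondrial synthetases had lower levels than cytosolic ones in both fractions. Divided by the length of the longest coding transcript in GENCODE M21, which need not be the gene model the authors counted on, the median level was 104 normalized counts per kb in GFP+ cells and 114 in Tomato+ cells, against 480 in GFP+ cells and 413 in Tomato+ cells for cytosolic genes. The mitochondrial log2 values ran from -0.16 to 1.70 with a median of 0.096, against 0.034 for the 8774 rows in the same range of overall mean, and 15 of 17 were above 0, where 55.8% of those rows were. With equal totals 4 of 17 were above 0, against 29.0% of the rows in that range, and the median was -0.061, so that the direction of this group depends on the scaling. The summed level was 0.126% of the GFP+ total and 0.0931% of the Tomato+ total. This order rests on Lars2, since without it the sum was 0.0675% of the GFP+ total and 0.0728% of the Tomato+ total.

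Lars2 was the only member past the authors' test. Its mean was 4679 normalized counts in GFP+ cells and 1442 in Tomato+ cells by the authors' deposited table, a 3.24-fold difference (log2 1.70, adjusted p = 3.51e-19). With equal totals its log2 was 1.54. Its level per kb was 1202 in GFP+ cells, above that of every other member, and 370 in Tomato+ cells, where it was still above every other mitochondrial member. The next mitochondrial gene was Rars2, at 217 per kb in GFP+ cells and 200 in Tomato+ cells. Of the 693 rows called higher in GFP+, 139 had a larger log2 value than Lars2. The highest log2 value among the other mitochondrial members was 0.26 for Fars2.

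The letters of the Lars2 transcript are in part shared with other genes. Its longest coding transcript in GENCODE M21 has 3894 bases, and its coding part ends at base 2908. In the 3′ UTR, bases 3233 to 3329 match AA474408 at 94.8% identity over 97 aligned bases, and bases 3278 to 3349 match Gm15564 at 98.6% over 72. The sources used here do not say how reads of such a stretch were assigned or whether strand was used, so the level of Lars2 is uncertain, and the part of the shared stretch in the difference was not tested. Both other genes lack a row under these symbols in the table. By the same search (at least 94% identity over at least 70 bases), 15 of 37 members share a stretch with another gene, among them Iars with the processed pseudogene Gm4849, over 1656 bases at 96.0%, and Hars with Hars2, over 195 bases at their overlapping starts.

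Most listed markers of other fetal liver cells were, like Lars2, higher in GFP+. Of 13 hepatoblast genes, 11 passed as higher in GFP+ and 0 as lower in the authors' deposited table, with summed levels of 3575 normalized counts in GFP+ cells and 1868 in Tomato+ cells. Of 13 macrophage genes 11 passed as higher and 0 as lower, with sums of 2104 in GFP+ cells and 685 in Tomato+ cells, and of 12 erythroid genes 8 passed as higher and 1 as lower, with sums of 39287 in GFP+ cells and 13245 in Tomato+ cells. The globin genes hold most of the erythroid sums, with 16122 in GFP+ cells and 4190 in Tomato+ cells for Hba-a2. Hbb-b1 had 15589 in GFP+ cells and 4780 in Tomato+ cells. The erythroid gene that passed as lower was Gata1 (log2 -1.06). Of all rows, 4.86% passed as higher and 2.64% as lower. Among the 8 erythroid genes, Rhag had a log2 of only 0.15, which was -0.0085 with equal totals, so its direction depends on the scaling. None of these markers was listed at 0 in either fraction. In a sorted bulk sample, more cells of a type and more RNA per cell cannot be told apart. The part of these cells in the synthetase values was not tested.

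**Figure D3:**
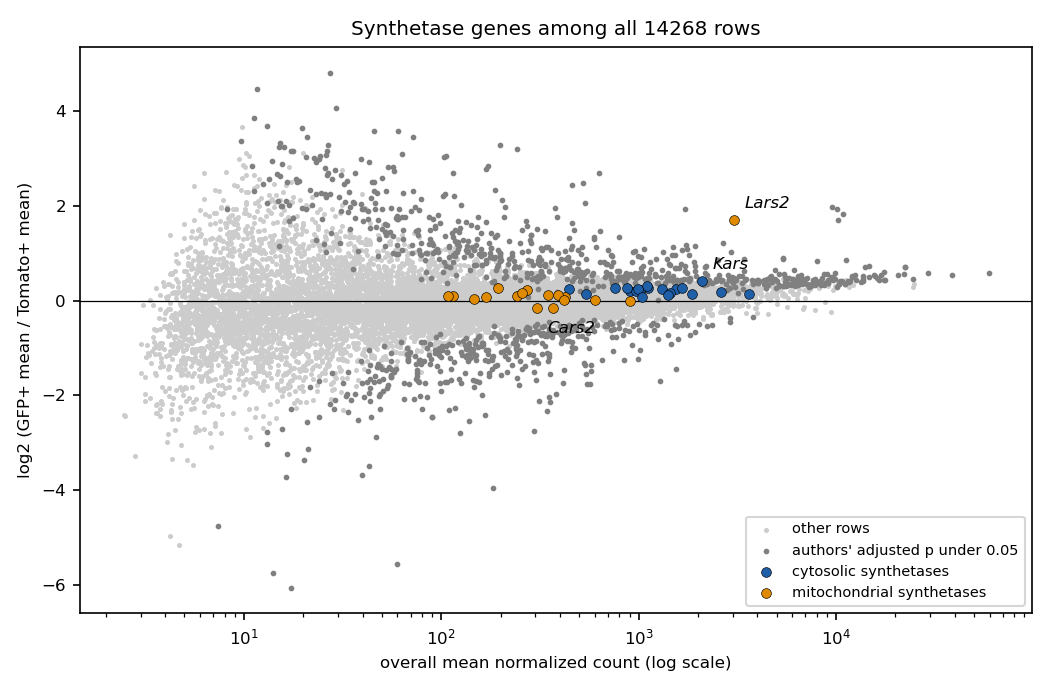
Log2 of the GFP+ mean over the Tomato+ mean against the overall mean normalized count (log axis) for all rows, with rows past the authors' adjusted p of 0.05 in dark grey and synthetase genes in colour. The cytosolic genes form a tight band above 0 at overall means of 445 to 3645, and Lars2 at a log2 of 1.70 lies far above all other synthetase genes.

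Apart from Lars2, no mitochondrial member passed the test. Fars2, for phenylalanine, averaged 211 in GFP+ cells and 176 in Tomato+ cells (log2 0.26, adjusted p = 0.667, the authors' deposited table), and Aars2, for alanine, 293 in GFP+ cells and 251 in Tomato+ cells (log2 0.22, adjusted p = 0.755). Iars2, Tars2 and Vars2 were nearly equal, with log2 values of 0.0041, 0.0052 and 0.0064. Iars2, for isoleucine, had 910.2 in GFP+ cells and 907.6 in Tomato+ cells by the authors' deposited table. Cars2 and Hars2 were the members with a lower mean in GFP+. Cars2, for cysteine, had 288 in GFP+ cells and 322 in Tomato+ cells (log2 -0.16, adjusted p = 0.934, the authors' deposited table). Hars2, for histidine, had 348 in GFP+ cells and 385 in Tomato+ cells (log2 -0.15, adjusted p = 0.892, the authors' deposited table). Neither difference passed the test. The other 9 mitochondrial members had log2 values of 0.047 to 0.17 and missed the threshold too, with adjusted p from 0.823 to 1 in the authors' deposited table.

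Where an amino acid has a cytosolic and a mitochondrial gene of the same name, the cytosolic gene had the higher log2 value in 13 of 14 pairs. The exception was leucine, with 0.27 for Lars and 1.70 for Lars2. For phenylalanine, whose cytosolic enzyme has subunits under other names, Fars2 at 0.26 was above Farsa at 0.071 and below Farsb at 0.28. The median difference over the 14 pairs was 0.14, and without leucine the differences ran from 0.029 for Sars over Sars2 to 0.40 for Cars over Cars2. Common scaling cancels in these differences, so they are the same with equal totals. Genes are not replicates of a condition, and with no value per library the differences have no error and no test.

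**Figure D4:**
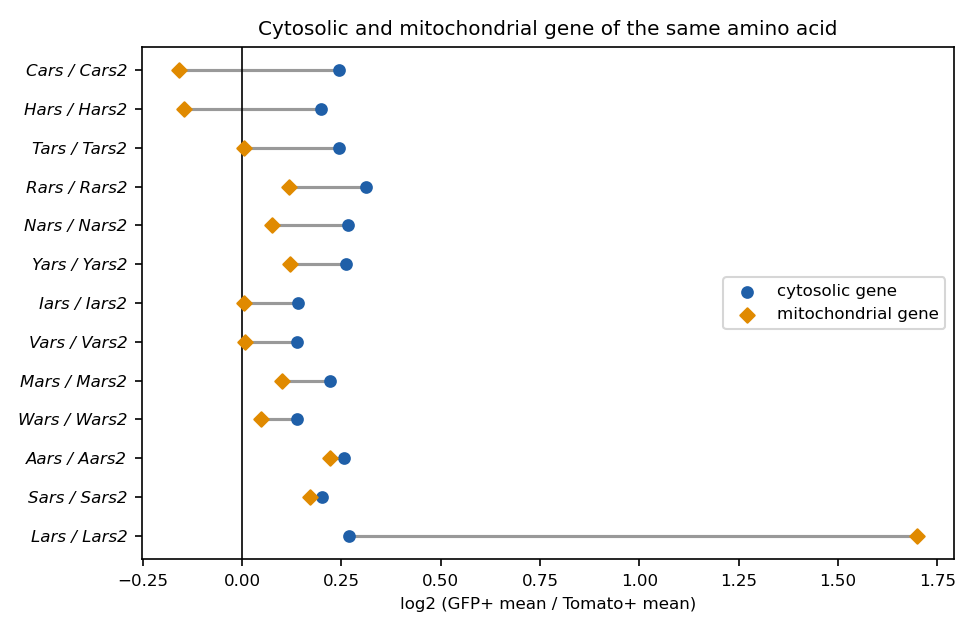
Log2 of the GFP+ mean over the Tomato+ mean for the cytosolic (circles) and mitochondrial gene (diamonds) of 13 of the pairs, with a line joining each. The cytosolic gene lies to the right in 12 of those shown and to the left in the leucine pair.

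The histidine genes are neighbours. Hars and Hars2 are transcribed in opposite directions from overlapping starts, and their log2 values were 0.20 for Hars and -0.15 for Hars2. In the authors' deposited table Hars averaged 971 in GFP+ cells and 845 in Tomato+ cells, with an adjusted p of 0.680. The ratio of the Hars mean to the Hars2 mean was 2.79 in GFP+ cells and 2.19 in Tomato+ cells, and for Cars to Cars2 it was 1.67 in GFP+ cells and 1.27 in Tomato+ cells. For Lars to Lars2 the ratio was 0.262 in GFP+ cells and 0.706 in Tomato+ cells. All these genes were measured in the same libraries.

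If read as normal tests of the log2 values, the authors' p-values for cytosolic members would imply larger errors than counting alone leaves. For 4 libraries a group at the deposited means, counting would leave a standard error of 0.017 to 0.049 on the log2 scale, if normalized counts were near the raw ones. On that reading, the authors' p-values would correspond to standard errors of 0.11 to 0.29. Among mitochondrial members, Iars2 and Vars2 hold the value 1 as unadjusted p. For Tars2 the implied standard error of 0.017 is under the counting error of 0.042. For Pars2, at a log2 of 0.096, the implied standard error is 6.33. The p-values therefore do not follow from the deposited means alone. Whether the implied errors measure a spread between libraries was not tested.

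Genes of the amino acid stress response, namely Atf4 and listed targets within and beyond amino acid supply, did not share 1 direction. Of 29 measured, 2 passed as higher and 0 as lower, and 5 had an unadjusted p under 0.05, all of them higher in GFP+. In all, 17 were above 0, with a median log2 of 0.12 (10 above 0 with equal totals). These counts are near the shares of all rows, of which 4.86% passed as higher and 16.2% had an unadjusted p under 0.05. Slc7a11, the cystine importer, averaged 161 in GFP+ cells and 79.1 in Tomato+ cells, 2.03-fold higher in the GFP+ fraction (adjusted p = 0.0109, the authors' deposited table). Phgdh, which starts serine synthesis, had 3591 in GFP+ cells and 2667 in Tomato+ cells, 1.35-fold higher in the GFP+ fraction (adjusted p = 0.0204, the authors' deposited table). The list's mean log2 of -0.027 differs in sign from its median. That mean includes -2.38 for Nupr1 (named after its values were seen), at very low means of 1.56 in GFP+ cells and 8.11 in Tomato+ cells. Atf4 itself and the targets Asns, Ddit3 and Trib3 were chosen after their values were seen. None of them passed, and their log2 values were 0.097 for Atf4, -0.34 for Asns, -0.48 for Ddit3 and -0.85 for Trib3. Trib3 had low means of 13.4 in GFP+ cells and 24.1 in Tomato+ cells. Slc7a5, Mthfd2 and Shmt2, also named after their values were seen, went the other way. They had an unadjusted p under 0.05 in the authors' comparison without passing, with log2 values of 0.37, 0.39 and 0.31.

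Among 9 genes of the eIF2 kinases and their partners, 2 passed as higher and 0 as lower (4.86% and 2.64% of all rows), with a median log2 of -0.015. Eif2ak1, the kinase inhibited by heme, averaged 623 in GFP+ cells and 462 in Tomato+ cells, 1.35-fold higher in the GFP+ fraction (adjusted p = 0.0272, the authors' deposited table). Ppp1r15a, a subunit of the eIF2 phosphatase, passed with a log2 of only 0.079, which was -0.078 with equal totals, so its direction depends on the scaling. Its means were 282 in GFP+ cells and 267 in Tomato+ cells (adjusted p = 0.0123, the authors' deposited table). That p is below that of Eif2ak1 at a far smaller difference, so it does not follow from the means alone, and the reason was not tested. Eif2ak4 (Gcn2), the sensor of uncharged tRNA, chosen after its values were seen, had 522 in GFP+ cells and 577 in Tomato+ cells (log2 -0.15, adjusted p = 0.987, the authors' deposited table).

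Partners of mitochondrial translation comprise the amidotransferase subunits, the formyltransferase Mtfmt and the translation factors. None of 13 passed the authors' adjusted p and 0 had an unadjusted p under 0.05, against 7.49% and 16.2% of all rows. All 13 were above 0, where 51.2% of all rows were, with a median log2 of 0.13 (5 above 0 with equal totals). Tsfm, an elongation factor, averaged 320.2 in GFP+ cells and 266 in Tomato+ cells (log2 0.27, adjusted p = 0.553, the authors' deposited table). Mtfmt, which formylates the initiator methionyl-tRNA, had a log2 of 0.22.

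Genes of tRNA end processing and export gave 0 of 19 past the threshold and 3 at an unadjusted p under 0.05, against 7.49% and 16.2% of all rows. The median log2 was 0.18, and 15 genes were above 0 (10 with equal totals). Ssb, the La protein that binds new RNA polymerase III transcripts, had 3226 in GFP+ cells and 2556 in Tomato+ cells (adjusted p = 0.127, the authors' deposited table), and Rpp40, a subunit of RNase P, 189 in GFP+ cells and 122 in Tomato+ cells (adjusted p = 0.166). The third gene was Elac1, which trims tRNA 3′ ends, named after its values were seen, with 136 in GFP+ cells and 204 in Tomato+ cells (log2 -0.59, adjusted p = 0.299, the authors' deposited table). RNA polymerase III and its factors, which make tRNA, gave 0 of 22, with 1 at an unadjusted p below 0.05, against 7.49% and 16.2% of all rows. Their median was 0.064, with log2 values of 0.50 for the factor Gtf3a and 0.36 for Gtf3c6, a TFIIIC subunit. Proofreading and selenocysteine genes gave 0 of 10, with 1 at an unadjusted p below 0.05, against the same shares of all rows. Their median was 0.038, with log2 values of 0.38 for the alanyl proofreading gene Aarsd1 and 0.34 for Prorsd1.

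Of 25 genes of mTORC1 and its amino acid sensors, 1 passed as higher and 0 as lower, against 4.86% and 2.64% of all rows, with a median log2 of -0.049. That gene was Rragd, a GTPase of the sensing complex, at low means of 21.2 in GFP+ cells and 3.80 in Tomato+ cells (adjusted p = 0.0471, the authors' deposited table). Differences between list medians were not tested.

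**Figure D5:**
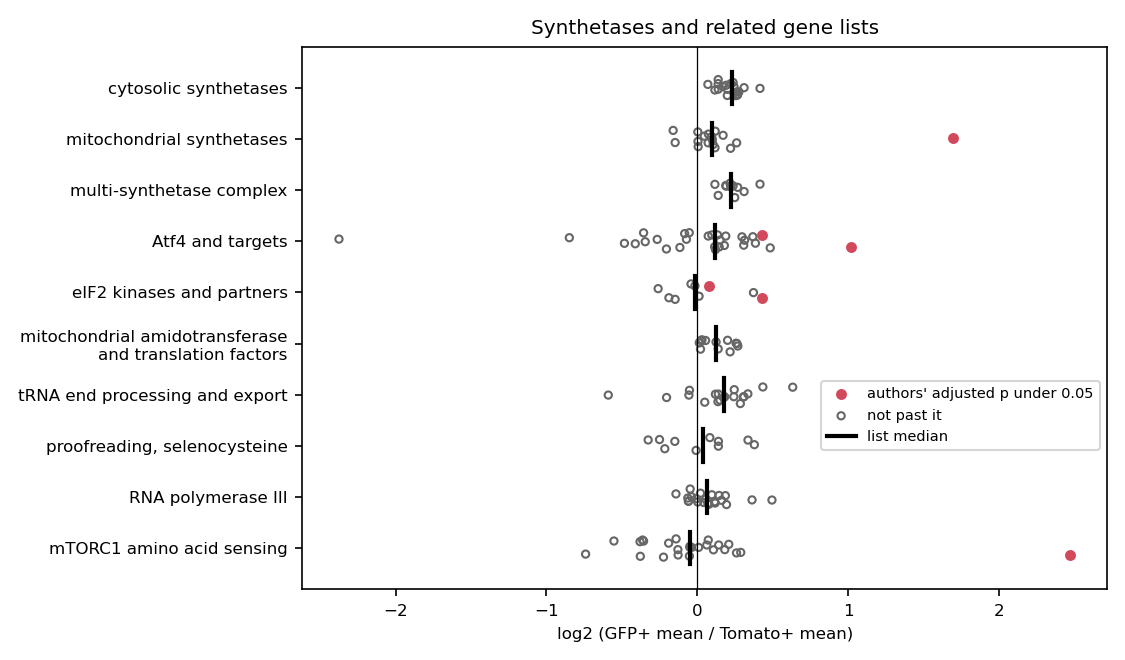
Log2 of the GFP+ mean over the Tomato+ mean for each measured gene of the synthetase lists and of related lists, with genes past the authors' adjusted p of 0.05 filled and the list median as a bar. The cytosolic synthetases lie within 0.071 to 0.42, and Atf4 and its targets spread from -2.38 (Nupr1, at very low counts) to 1.02 around a median of 0.12.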

How the data were processed

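The data were 1 table of 14268 rows with 14033 symbols. Per the submitters' processing notes, DESeq, bedtools, TopHat, TopHat2 2.0.11 and Bowtie2 2.2.1 were used with genome build mm9, and the role of each is not given. Per the file headers, the authors deposited a mean normalized count of each row (a signal) over all libraries and over each fraction. The authors also deposited a fold change (a ratio, Tomato+ over GFP+) with its log2 value. The p-value before and after adjustment is likewise the authors'.

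A repeated header line was dropped, and each symbol was read from its row with the highest overall mean; no member had a second row. Log2 values were recomputed as GFP+ over Tomato+, with no pseudocount. No counts per library were at hand, so the authors' adjusted p under 0.05 was read in place of a test of counts, with no fold minimum. The authors' adjustment matched Benjamini-Hochberg over all rows within a relative 6.36e-07. One mitochondrial member is counted in the groups and not reported singly here. Members and lists were chosen with earlier results of these data known. Named were members and genes past the threshold, the extremes and the pairs, and otherwise the 2 smallest p-values of a list. Some further genes, Eef1e1 among them, were named outside this rule. Older symbols were matched through RefSeq. Transcripts were compared with BLAST+ 2.17.0. The motifs were chosen with the members' values known. The scripts (Python 3.11.15, pandas 2.3.3) were tested on simulated data.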

Additional observations from a re-analysis of the deposited data

How the results depend on the processing

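No paired analysis was possible because single libraries have no values in the table. The replicate block and leaving out single libraries were therefore not run, and the limit set by depth is unknown. The counts of 0 cytosolic and 1 mitochondrial members past the threshold were the same at adjusted p under 0.1. They also held with the adjustment repeated over 1 row per symbol or over rows with an overall mean of at least 50, which removed no member. Adjusted p under 0.01, a Bonferroni adjustment and the lowest p row per symbol gave the same counts too. These last settings could add no member, since a stricter threshold cannot raise a count and no member had a second row. The cytosolic median log2 of 0.23 was 0.074 with equal totals and 0.20 when centred on the median of rows with an overall mean of at least 50. The mitochondrial median of 0.096 was -0.061 with equal totals, 0.065 when centred and 0.085 without Lars2. Their difference of 0.13 was 0.054 with means in place of medians, 0.15 with means and without Lars2 and 0.15 with medians and without Lars2. Leaving out Lars2 was chosen after seeing the data. Leaving out Gars and Kars kept the cytosolic median at 0.23, and counting them as mitochondrial too gave a mitochondrial median of 0.10 and a difference of 0.13. The equal-totals scaling subtracts 0.16 from each log2 value, which by construction turned 16 members that had not passed the test, among them 15 with values of -0.017 for Iars, -0.039 for Qars, -0.018 for Vars, -0.017 for Wars, -0.086 for Farsa, -0.15 for Iars2, -0.057 for Mars2, -0.083 for Nars2, -0.039 for Rars2, -0.15 for Tars2, -0.15 for Vars2, -0.11 for Wars2, -0.037 for Yars2, -0.051 for Ears2 and -0.061 for Pars2. Centring turned Iars2, Tars2 and Vars2, to -0.027, -0.026 and -0.024.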

Other observations

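Genes around Lars2 were looked at after its value was seen. Within 500 kb on each side in the RefSeq gene order of mouse build GRCm38, 18 other genes had a row, of which 2 passed the authors' adjusted p of 0.05, against 7.49% of all rows. The receptor gene Ccr9 averaged 437 normalized counts in GFP+ cells and 47.5 in Tomato+ cells (log2 3.20, the authors' deposited table). Lztfl1, which lies between Lars2 and Ccr9 and encodes a regulator of ciliary transport, had 364 in GFP+ and 252 in Tomato+ (log2 0.53, adjusted p = 0.0465, the authors' deposited table). The neighbours closest to Lars2 did not pass, with log2 values of -0.12 for Tmem158 and -0.080 for Limd1.

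Among rows with a symbol of the mitochondrial genome, mt-Nd4, a subunit of respiratory complex I that mitochondrial ribosomes make, was the one listed. It averaged 17182 in GFP+ cells and 12214 in Tomato+ cells (log2 0.49, adjusted p = 0.00313, the authors' deposited table). It was chosen after its value was seen.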
